A study of Mus musculus with 21 samples.

Results

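The enzymes that write and erase DNA methylation were followed through the first day of retinoic acid (RA) treatment in mouse embryonic stem cells (ESCs). The 9 genes are Dnmt3a, Dnmt3b, Dnmt3l, Dnmt1, Uhrf1, Tet1, Tet2, Tet3 and Tdg, taken by gene name from every table. All 9 were found among the 32285 genes listed in the time course and again among the 25239 listed in a separate Cyp26a1 set. All 9 passed the filter on low values in both. Polyadenylated RNA was sequenced from 21 libraries in 7 groups of 3. The starting cells (ESC_0h) were wild type ESCs on gelatin in serum with LIF, 1 µM PD0325901 and 3 µM CHIR99021, the pair of inhibitors known as 2i. The groups noRA_12h and noRA_24h were sampled 12 h and 24 h after LIF and 2i were removed, and RA_12h and RA_24h after 12 h and 24 h with 2 µM RA. The labels leave unsaid whether RA_12h and RA_24h cells also lost LIF and 2i, and without a later group kept in both, removal cannot be told apart from time. In the Cyp26a1 set, wild type (Cyp26a1_WT) and Cyp26a1 knockout (Cyp26a1_KO) ESCs were both given 2 µM RA over 24 h, with LIF and 2i withdrawn, and no knockout clone is named. Replicates are numbered without saying whether they were separate cultures, so the p-values rest on a spread between samples that may be technical alone.

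Methyl groups are added to cytosine, mostly in CpG pairs, by DNA methyltransferases. Dnmt3a and Dnmt3b place new marks, and Dnmt3l has no catalytic activity of its own but binds both and stimulates them. Dnmt1 copies marks onto the new strand after replication, guided by Uhrf1, which binds hemimethylated DNA. Tet1, Tet2 and Tet3 oxidise methylcytosine, and the glycosylase Tdg removes the most oxidised forms so that base excision repair can restore an unmodified base. Naive ESCs kept in 2i are known for low methylation, which rises as they leave that state. These files hold RNA levels only, so no methylation was measured here.

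In mm10 coordinates of the time course tables, Dnmt3a (ENSMUSG00000020661) lies on chromosome 12 from 3806007 to 3914443, Dnmt3b (ENSMUSG00000027478) on chromosome 2 from 153649450 to 153687730 and Dnmt3l (ENSMUSG00000000730) on chromosome 10 from 78041947 to 78063622. Dnmt1 (ENSMUSG00000004099) lies on chromosome 9 from 20907209 to 20959888 and Uhrf1 (ENSMUSG00000001228) on chromosome 17 from 56303321 to 56323486. Tet1 (ENSMUSG00000047146) and Tdg (ENSMUSG00000034674) share chromosome 10, from 62804570 to 62908996 and from 82629828 to 82650799. Tet2 (ENSMUSG00000040943) lies on chromosome 3 from 133463679 to 133545139 and Tet3 (ENSMUSG00000034832) on chromosome 6 from 83362373 to 83459084. Start sites of the 3 de novo writers are shown because these genes rose together when LIF and 2i were removed and were lower with RA. The windows are the 250 bases before an annotated start in RefSeq (GRCm38.p6, plus strand), written 5′ to 3′ with each CpG in capitals. RefSeq has 3 starts each for Dnmt3a and Dnmt3l, of which the first and the internal start of Dnmt3a and the first of Dnmt3l are shown.
Dnmt3a, first start, chr12:3806730-3806979: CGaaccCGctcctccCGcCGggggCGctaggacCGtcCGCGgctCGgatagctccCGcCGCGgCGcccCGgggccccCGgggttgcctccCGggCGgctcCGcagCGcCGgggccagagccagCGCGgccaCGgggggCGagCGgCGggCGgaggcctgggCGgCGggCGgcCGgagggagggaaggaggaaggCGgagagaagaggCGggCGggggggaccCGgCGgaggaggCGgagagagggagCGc
Dnmt3a, internal start, chr12:3891494-3891743: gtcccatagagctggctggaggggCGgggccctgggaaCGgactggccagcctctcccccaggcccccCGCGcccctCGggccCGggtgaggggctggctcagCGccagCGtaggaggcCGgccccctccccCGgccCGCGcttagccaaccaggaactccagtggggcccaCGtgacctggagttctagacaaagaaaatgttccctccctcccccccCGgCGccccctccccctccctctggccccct
Dnmt3b, chr2:153649199-153649448: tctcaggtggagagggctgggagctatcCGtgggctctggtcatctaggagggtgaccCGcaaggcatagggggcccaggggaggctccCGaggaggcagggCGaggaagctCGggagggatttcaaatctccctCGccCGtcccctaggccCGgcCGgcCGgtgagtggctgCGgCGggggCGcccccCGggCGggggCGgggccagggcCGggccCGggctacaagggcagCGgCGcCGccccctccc
Dnmt3l, first start, chr10:78042037-78042286: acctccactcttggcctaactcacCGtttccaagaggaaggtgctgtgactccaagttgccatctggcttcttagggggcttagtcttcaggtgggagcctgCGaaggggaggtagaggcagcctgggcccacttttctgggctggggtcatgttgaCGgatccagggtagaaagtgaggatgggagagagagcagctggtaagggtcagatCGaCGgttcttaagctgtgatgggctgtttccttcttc
These windows differed widely in CpG content. The first start of Dnmt3a held 38 CpGs, its internal start 15, Dnmt3b 21 and the first start of Dnmt3l 5, against a median of 6 over 32851 promoter windows of this length. At least 38 CpGs were found in 1.88% of those windows, and at least 5 in 55.6%. All 9 genes had at least 1 RefSeq window, 16 windows in all. Of these windows 3 held AGGTCA, a hexamer that nuclear receptors bind, on either strand (the internal start of Dnmt3a, Tet1 and a second start of Uhrf1), and 14.0% of all windows did. AGTTCA, a variant of it, was in 11.8% of all windows and in none of the 16. TAATCC, the core motif of Otx2, was in 6.25% of all windows and in 1 of the 16, that of Tdg. A match says only that these letters are in the window. The tables give 1 value per gene, so transcripts from the different starts were not told apart.

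The depth read from the tables was 2.96 to 3.91 aligned gigabases for time course libraries and 2.72 to 3.24 for those of the Cyp26a1 set. The RA-degrading enzyme gene Cyp26a1, read first as a check of the labels, stood at 119 to 122 TPM (transcript abundance scaled for length and library) in RA_12h, 281 to 336 in RA_24h and at most 0.961 in the libraries without RA. It stood at 585 to 606 TPM in Cyp26a1_WT and 4.03 to 4.93 in Cyp26a1_KO. The 6 ESC markers summed to 5954 to 9113 TPM over all libraries. The 7 feeder fibroblast markers, among them Col1a1 and Dcn, summed to at most 18.1 TPM, with Lum at 0 in every group but RA_24h. Libraries of a group differed mostly along 1 axis, with 67.2% of the within-group variance (time course) and 70.1% (Cyp26a1 set). Library 1 of noRA_12h and library 2 of RA_24h stood farthest from their groups in the time course, and library 3 of Cyp26a1_KO in the other set. Genes weighted on this axis tended to be long (r = 0.29 with exonic length across genes) and poor in GC (r = -0.67). In bulk RNA, fewer cells that express a gene and less RNA per cell cannot be told apart.

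Removal of LIF and 2i without RA was followed by a steep rise of all 3 de novo writers. Dnmt3a, the lowest of them at the start, stood at 8.93, 9.23 and 10.3 TPM in the 3 ESC_0h libraries. Without LIF and 2i its libraries held 91.8, 102 and 95.4 TPM (noRA_12h) and 195, 171 and 168 TPM (noRA_24h). Every library without LIF and 2i was far above every ESC_0h library, and those of 24 h were all above those of 12 h. Its group mean was 10.1-fold higher at 12 h and 18.7-fold higher at 24 h. Dnmt3b stood at 82.1, 77.5 and 79.8 TPM in ESC_0h, 245, 274 and 260 TPM in noRA_12h and 443, 424 and 396 TPM in noRA_24h, a 3.25-fold and then a 5.27-fold higher mean. Dnmt3l, the cofactor, was the most abundant of the 9 genes after removal, with 168, 153 and 156 TPM in ESC_0h, 1158, 1354 and 1221 TPM in noRA_12h and 1569, 1544 and 1556 TPM in noRA_24h. Neither gene had a library that overlapped between these 3 groups.

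**Figure D1:**
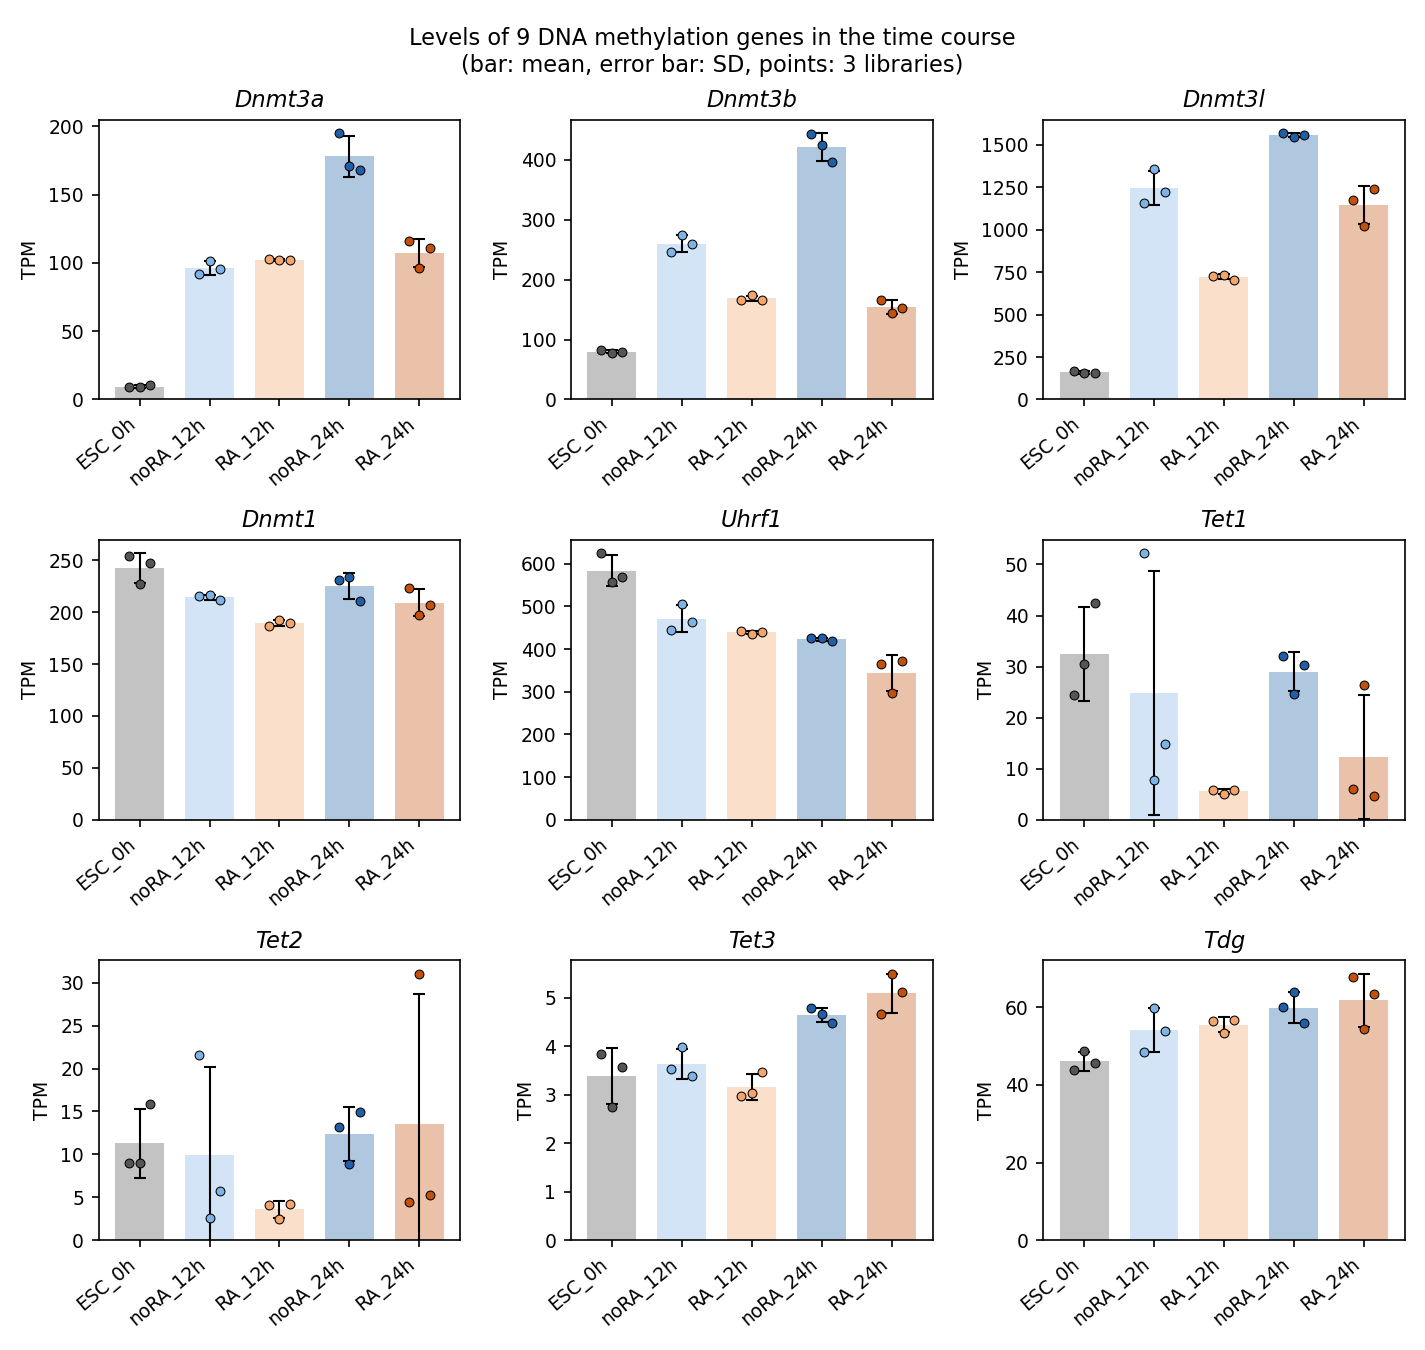
TPM of the 9 genes (vertical axes, linear from 0) in the 5 time course groups (horizontal axes), with bars for the mean of 3 libraries, error bars for the SD and a point per library; error bars that would reach below 0 stop at the axis. Dnmt3a, Dnmt3b and Dnmt3l were lowest in ESC_0h and highest in noRA_24h, while 1 library of noRA_12h and 1 of RA_24h stood apart for Tet1 and Tet2.

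Changes are differences of log2(TPM + 1), tested with limma over 13948 genes and called at a Benjamini-Hochberg adjusted p below 0.05. Against ESC_0h, Dnmt3a rose by 3.21 (SE 0.08, adjusted p = 8.68e-12) at 12 h and by 4.09 (SE 0.08, adjusted p = 1.20e-12) at 24 h. Dnmt3b rose by 1.69 (SE 0.06) and 2.38 (SE 0.06), and Dnmt3l by 2.96 (SE 0.07) and 3.28 (SE 0.07). Between 12 h and 24 h the rise went on for Dnmt3a (0.88, SE 0.08), Dnmt3b (0.69, SE 0.06) and Dnmt3l (0.33, SE 0.07, adjusted p = 0.00324). At 12 h, 3 of the 9 genes were higher and 2 lower, where 42.5% of all genes tested were called (22% higher, 20.4% lower). At 24 h, 5 were higher and 1 lower, where 51.9% of all genes were called (25.4% higher, 26.5% lower). Between these times the 3 writers were higher and no other of the 9 passed, where 39.6% of all genes were called (17.1% higher, 22.6% lower). Read from the coverage column of the same tables, the rise of Dnmt3a at 12 h was 2.13 in place of 3.21. There the scaled coverage of Dnmt3a was 0.149 ± 0.00822 times its FPKM (a related length-scaled level) in ESC_0h and 0.142 ± 0.00577 times in noRA_12h, which overlap. The same pseudocount of 1 was added to these lower values, on which it weighs more. The changes of 2.13 and 3.21 are thus not on the same scale.

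The maintenance pair moved the other way and by far less. Uhrf1 stood at 625, 557 and 569 TPM in ESC_0h, 445, 506 and 463 TPM in noRA_12h and 425, 425 and 420 TPM in noRA_24h, and no library of these groups overlapped with another group. It fell by 0.31 (SE 0.08, adjusted p = 0.00654) at 12 h and by 0.46 (SE 0.08, adjusted p = 2.75e-04) at 24 h. The fall at 12 h missed the threshold under median-of-ratios scaling (adjusted p = 0.0659). Dnmt1 went from 254, 227 and 247 TPM to 215, 216 and 212 TPM at 12 h, a fall of 0.18 (SE 0.06, adjusted p = 0.0294). That call was lost without library 1 or 3 of ESC_0h or any one library of noRA_12h (adjusted p = 0.0508 to 0.111). It was also lost under median-of-ratios scaling (adjusted p = 0.169), on FPKM values, without the intensity trend of the fit and with only the groups compared. At 24 h Dnmt1 stood at 231, 234 and 211 TPM, which overlaps with ESC_0h (change -0.10, SE 0.06, adjusted p = 0.159). The summed level of Dnmt3a and Dnmt3b was 0.369 ± 0.0125 times that of Dnmt1 in ESC_0h, 1.66 ± 0.0871 times in noRA_12h and 2.66 ± 0.111 times in noRA_24h (mean ± SD, n = 3 libraries).

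Among the erasers, changes after removal were small or within the spread. Tdg stood at 43.8, 48.8 and 45.6 TPM in ESC_0h and at 60.1, 63.8 and 55.9 TPM in noRA_24h, and rose by 0.37 (SE 0.09, adjusted p = 0.00422) with no overlap. Corrected for GC content and length, the same change was 0.25 and missed the threshold (adjusted p = 0.129). Tet3, the least abundant of the 9 genes, went from 3.84, 2.75 and 3.57 TPM to 4.78, 4.66 and 4.49 TPM and rose by 0.37 (SE 0.11, adjusted p = 0.0153). That call was lost without library 2 of ESC_0h (adjusted p = 0.0713) and under quantile normalization (adjusted p = 0.153). Tet1 and Tet2 differed from ESC_0h by -0.13 (SE 0.60) and 0.14 (SE 0.67) at 24 h, both within the spread between libraries.

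The de novo writers were lower with RA than without it, Dnmt3b and Dnmt3l at both times and Dnmt3a at 24 h. Since the labels do not say whether cells given RA kept LIF and 2i, RA and a difference in LIF and 2i cannot be told apart in these comparisons. Dnmt3b stood at 167, 174 and 166 TPM in RA_12h and at 166, 144 and 152 TPM in RA_24h. All of these libraries were below every noRA library of the same time, and its mean was 65.0% of that without RA at 12 h and 36.5% at 24 h. It was lower by 0.62 at 12 h (change -0.62, SE 0.06, adjusted p = 1.33e-05) and by 1.45 at 24 h (change -1.45, SE 0.06, adjusted p = 1.83e-09). Dnmt3a stood at 103, 102 and 102 TPM in RA_12h, close to noRA_12h (change 0.09, SE 0.08, adjusted p = 0.510), and at 116, 96.1 and 111 TPM in RA_24h. At 24 h it was lower than without RA (change -0.72, SE 0.08, adjusted p = 1.51e-05) and its mean was 60.4% of that in noRA_24h. Dnmt3l stood at 730, 731 and 705 TPM in RA_12h and at 1173, 1023 and 1239 TPM in RA_24h. It was lower than without RA by more at 12 h (change -0.78, SE 0.07) than at 24 h (change -0.45, SE 0.07, adjusted p = 3.06e-04), with no overlap at either time.

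The change of the RA effect from 12 h to 24 h was tested directly. It was -0.81 for Dnmt3a (SE 0.12, adjusted p = 8.45e-04) and -0.83 for Dnmt3b (SE 0.09, adjusted p = 9.03e-05). The gap to cells without RA widened for Dnmt3b, while Dnmt3a was not called at 12 h (0.09) and was lower at 24 h (-0.72). For Dnmt3l the change of the RA effect had the opposite sign (0.33, SE 0.10, adjusted p = 0.0674) and missed the threshold. Without both libraries that stand apart it was 0.46 and passed (adjusted p = 0.00208), as it did without library 1 of noRA_12h (0.39, adjusted p = 0.0422) or library 2 of RA_24h (0.41, adjusted p = 0.00905) alone. In this test 2 of the 9 genes were called, both lower, where 6.85% of all genes were called (4.17% higher, 2.68% lower). The share called went to 11.6% without library 2 of RA_24h and to 29.2% without both libraries. At 12 h 2 of the 9 were lower with RA, where 17.4% of all genes were called (10.2% higher, 7.19% lower). At 24 h 4 of the 9 were lower, where 35.2% of all genes were called (22.8% higher, 12.5% lower). Without library 2 of RA_24h 25.7% of all genes were lower at 24 h, and 21.4% with the GC and length correction.

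**Figure D2:**
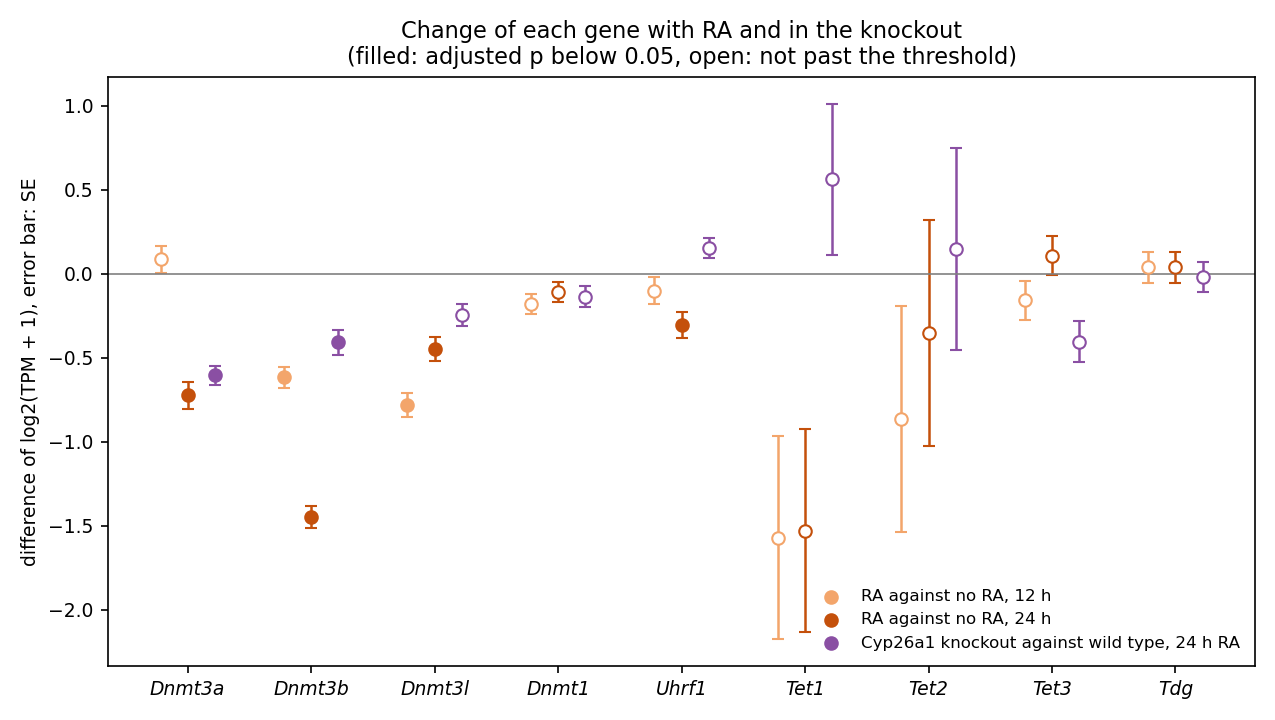
Difference of log2(TPM + 1) with its SE (vertical axis) for each of the 9 genes (horizontal axis) with RA at 12 h, with RA at 24 h and in the Cyp26a1 knockout; filled points passed the adjusted p threshold of 0.05 and open points did not. Dnmt3b was lower in all 3 comparisons, Dnmt3a at 24 h and in the knockout, and the wide bars belong to Tet1 and Tet2.

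Between 12 h and 24 h with RA, Dnmt3a and Dnmt3b did not rise further (changes 0.07, SE 0.08 and -0.14, SE 0.06, adjusted p = 0.523 and 0.108), while Dnmt3l rose by 0.66 (SE 0.07, adjusted p = 1.59e-05). The summed TPM of Dnmt3a and Dnmt3b was 268 to 275 in RA_12h and 239.7 to 282 in RA_24h, which overlap, against 337 to 376 in noRA_12h and 565 to 638 in noRA_24h (3 libraries each). The balance of the catalytic writers also differed. There were 0.119 ± 0.0104 Dnmt3a transcripts per Dnmt3b transcript in ESC_0h, 0.371 ± 0.00313 in noRA_12h and 0.423 ± 0.0191 in noRA_24h, against 0.605 ± 0.0161 in RA_12h and 0.699 ± 0.0299 in RA_24h. No library overlapped in this ratio between any pair of groups compared (two-sided exact permutation test, p = 0.1 for each of the 8 comparisons, the smallest that 3 against 3 allow). Dnmt3l per catalytic writer was lowest in ESC_0h (1.78 ± 0.0607) and highest in RA_24h (4.38 ± 0.296), and RA_12h (2.66 ± 0.0408) and noRA_24h (2.60 ± 0.149) overlapped.

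**Figure D3:**
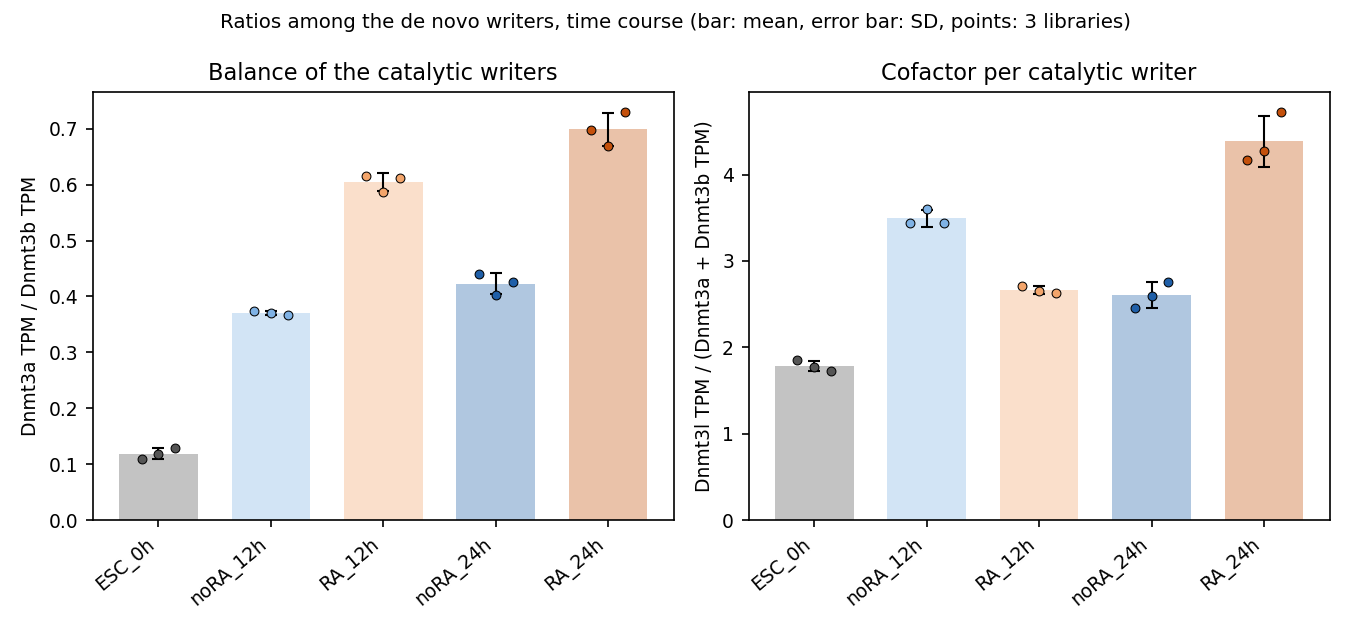
Ratio of Dnmt3a to Dnmt3b TPM (left) and of Dnmt3l to the summed Dnmt3a and Dnmt3b TPM (right) in the 5 time course groups, with bars for the mean of 3 libraries, error bars for the SD and a point per library. The left ratio averaged 0.119 in ESC_0h and was at least 0.587 in every RA library, against at most 0.441 without RA.

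Compared with ESC_0h, which also served as the control of the noRA comparisons, the writers were still higher with RA. Dnmt3a was higher by 3.30 (SE 0.08) at 12 h and 3.37 (SE 0.08) at 24 h, Dnmt3b by 1.07 (SE 0.06) and 0.94 (SE 0.06), and Dnmt3l by 2.17 (SE 0.07) and 2.84 (SE 0.07). The highest adjusted p among these 6 values was 4.37e-08. At 12 h, 4 of the 9 genes were higher than in ESC_0h and 3 lower, where 55.7% of all genes were called (27.4% higher, 28.3% lower). At 24 h, 5 were higher and 3 lower, where 50.6% of all genes were called (28.5% higher, 22.1% lower). From RA_12h to RA_24h, 2 of the 9 were higher and 1 lower, where 34.6% of all genes were called (17.8% higher, 16.8% lower).

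The value of Dnmt3l carries a limit of its own. Aire, whose product drives tissue antigen expression in the thymus, has exons that overlap those of Dnmt3l on the opposite strand (GENCODE M21), and strandedness is not given in the sources used here. Aire stood at 18.8 ± 2.72 TPM in ESC_0h, 49.8 ± 5.93 in noRA_12h, 22.0 ± 1.39 in RA_12h, 106 ± 6.14 in noRA_24h and 73.1 ± 2.66 in RA_24h (mean ± SD, n = 3), and its libraries with RA lay below those without RA at both times, as for Dnmt3l. Reads of these genes cannot be told apart where they overlap. Dnmt3c, a rodent copy of Dnmt3b used in the male germline, was listed apart in the time course at 1.63 ± 0.402 TPM in ESC_0h and 12.4 ± 1.15 TPM in noRA_24h. How reads shared by Dnmt3b and Dnmt3c were assigned is not given in the sources used here.

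Of the maintenance pair, Uhrf1 at 24 h was the one gene and time that passed against cells without RA. It stood at 443, 436 and 440 TPM in RA_12h, below the libraries of noRA_12h but not past the threshold (change -0.10, SE 0.08, adjusted p = 0.433), and at 365, 296 and 372 TPM in RA_24h. The value of 296 TPM is that of library 2 of RA_24h, which stands apart. In RA_24h every library was below every other time course library, and Uhrf1 was lower than in noRA_24h (change -0.30, SE 0.08, adjusted p = 0.00899), than in RA_12h (change -0.36, SE 0.08, adjusted p = 0.00362) and than in ESC_0h (change -0.76, SE 0.08). The difference from noRA_24h missed the threshold when only these 2 groups were modelled (adjusted p = 0.0633) and on the coverage values (adjusted p = 0.0507). Dnmt1 was lowest in RA_12h, at 186, 193 and 189 TPM, below every library of the other 4 groups. It was lower than ESC_0h there by 0.35 (change -0.35, SE 0.06, adjusted p = 2.65e-04), while its difference from noRA_12h missed the threshold (change -0.18, SE 0.06, adjusted p = 0.0576). At 24 h with RA it stood at 223, 198 and 206 TPM, overlapping with noRA_24h. Uhrf1 per Dnmt1 transcript went from 2.41 ± 0.0901 in ESC_0h to 1.88 ± 0.0930 in noRA_24h and 1.65 ± 0.151 in RA_24h, with no overlap (two-sided exact permutation test, p = 0.1, the smallest possible). At 12 h this ratio overlapped between RA_12h (2.32 ± 0.0598) and noRA_12h (2.20 ± 0.136), with exact permutation p = 0.3, and both overlapped with ESC_0h.

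Of 14 S phase genes, read beside the maintenance pair because both work at replication, 5 were lower in RA_24h than in noRA_24h, where 12.5% of all genes were lower (25.7% without library 2 of RA_24h), and the other 9 did not pass. Pcna, the replication clamp, was lower by 0.47 (change -0.47, SE 0.08), Mcm4 by 0.44 (change -0.44, SE 0.13), Mcm6 by 0.38 (change -0.38, SE 0.13) and Rrm2 by 0.38 (change -0.38, SE 0.05). The median of the 14 was -0.10, beside 0.02 over all genes tested. Their summed level was 3764 to 4182 TPM in RA_24h and 4384 to 4594 TPM in noRA_24h. It was 4075 to 4160 TPM in ESC_0h, 4030 to 4357 TPM in noRA_12h and 4035 to 4061 TPM in RA_12h. RA_24h overlapped with each of these groups, and noRA_24h lay above all of them. From noRA_12h to noRA_24h 6 of the 14 were higher and 0 lower (17.1% and 22.6% of all genes). From RA_12h to RA_24h 3 were higher and 1 lower (17.8% and 16.8% of all genes). The part of the S phase genes in the difference of Uhrf1 was not tested.

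Tet1 was low in most libraries with RA, but its spread within groups was wide. It stood at 24.3, 30.4 and 42.5 TPM in ESC_0h, 52.2, 7.72 and 14.8 TPM in noRA_12h, 5.87, 5.05 and 5.74 TPM in RA_12h, at 32.1, 24.7 and 30.3 TPM in noRA_24h and at 6.02, 26.4 and 4.74 TPM in RA_24h. All RA_12h libraries were below every library without RA, and so were 2 of the 3 RA_24h libraries, while library 2 of RA_24h lay among those of noRA_24h. Against ESC_0h, Tet1 fell by 2.32 (SE 0.60, adjusted p = 0.00591) at 12 h with RA and by 1.66 (SE 0.60, adjusted p = 0.0352) at 24 h. The 24 h call was lost without library 2 or 3 of ESC_0h or library 1 or 3 of RA_24h (adjusted p = 0.0712 to 0.138). It was also lost without the filter on low values, with a replicate block, with only the groups compared and on the coverage values. Against cells without RA the changes were -1.57 (SE 0.60, adjusted p = 0.0982) at 12 h and -1.53 (SE 0.60, adjusted p = 0.0660) at 24 h, neither past the threshold. Without both libraries that stand apart, a setting chosen after seeing the data, these became -0.84 (adjusted p = 0.0289) and -2.23 (adjusted p = 9.41e-06). Of all genes 17.8% and 59.9% were called there. That setting leaves out the highest Tet1 library of noRA_12h and of RA_24h, so its p-values are not separate support. With a correction for GC content and length both changes were -1.09 (adjusted p = 0.0282 and 0.0193), where 26.3% and 39.5% of all genes were called.

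Tet2 followed the same libraries. It stood at 9.01, 8.95 and 15.9 TPM in ESC_0h, 21.6, 2.58 and 5.71 TPM in noRA_12h, 4.13, 2.41 and 4.17 TPM in RA_12h, 13.2, 8.88 and 15.0 TPM in noRA_24h and 4.40, 31.0 and 5.23 TPM in RA_24h. Its highest value of all 15 libraries was thus in library 2 of RA_24h, beside 2 low ones. Against noRA_24h its change was -0.35 (SE 0.67, adjusted p = 0.699), and without library 2 of RA_24h or without both libraries that stand apart it was -1.18 (adjusted p = 0.00555 without both). Leaving out library 2 takes away the highest Tet2 value of all, and 59.9% of all genes were called without both libraries. Tet1 and Tet2 were at the 99.4th and 99.8th percentile of all genes in their weight on the within-group axis, and 97.6% and 94.7% of their within-group variance lay on it. Their exons come to 15457 and 16870 bases, and their longest transcripts have 43.7% and 45.4% GC. Tet3, as long (16695 bases) but with 53.4% GC, had 0.174% of its within-group variance on the axis in the time course. Of the other genes, Dnmt3l had 85.3%, Uhrf1 82.3% and Tdg 63.5% of it there in the time course. Dnmt3b had 48.9%, Dnmt3a 26.8% and Dnmt1 14.4%. In the Cyp26a1 set the shares were 99.4% for Tet1, 99.8% for Tet2, 88.9% for Dnmt3l and 58.7% for Tet3. The part of this axis in the differences of Tet1 and Tet2 between groups was not tested beyond these alternatives.

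**Figure D4:**
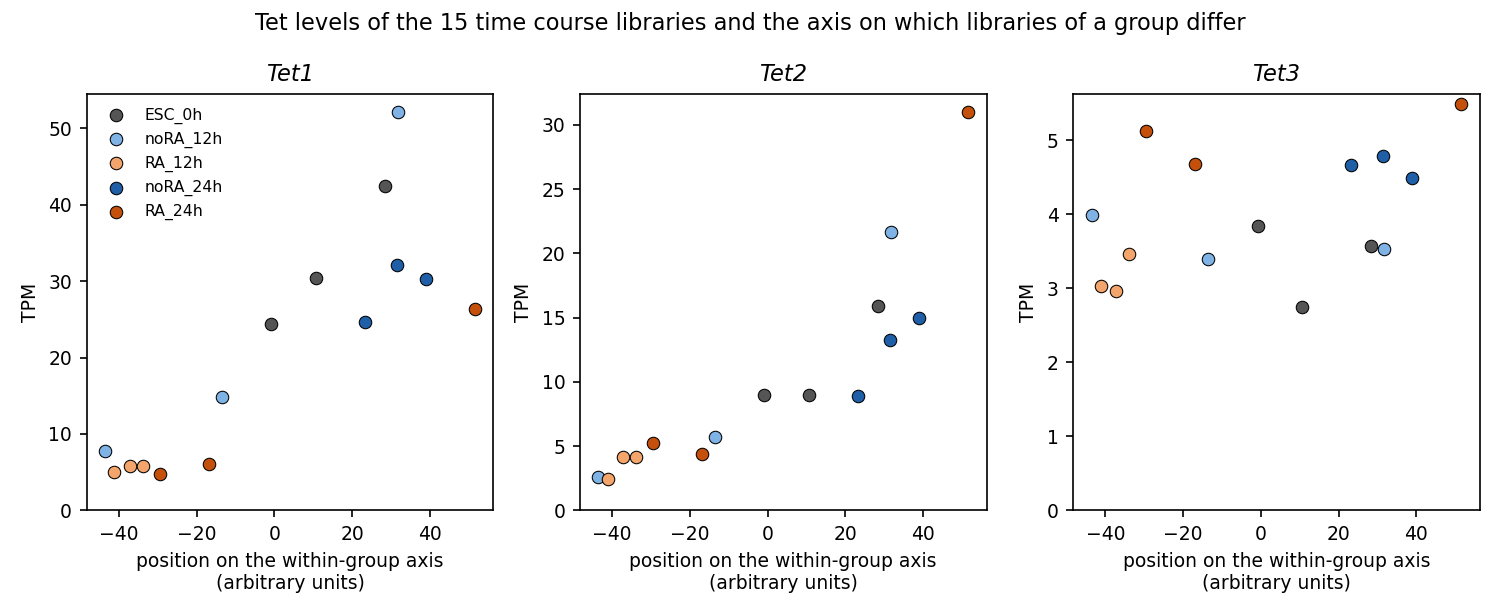
TPM of Tet1, Tet2 and Tet3 (vertical axes) against the position of each of the 15 time course libraries on the axis along which libraries of a group differ (horizontal axes, arbitrary units), coloured by group. Tet1 and Tet2 were higher toward the right in each group with a wide spread, and Tet3 was not; all 3 RA_12h libraries lay near the left end.

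Tet3 and Tdg had narrow spreads. Tet3 stood at 2.97, 3.03 and 3.47 TPM in RA_12h and at 4.68, 5.49 and 5.12 TPM in RA_24h, and rose between them by 0.55 (SE 0.11, adjusted p = 0.00248) with no overlap. Under quantile normalization this rise was 0.28 and missed the threshold (adjusted p = 0.183), and on the coverage values it was 0.29. Against noRA_24h the change of Tet3 was 0.11 (SE 0.11, adjusted p = 0.476). Tdg stood at 56.5, 53.3 and 56.7 TPM in RA_12h and at 67.7, 54.3 and 63.5 TPM in RA_24h, and overlapped with the noRA group of each time (changes 0.04, SE 0.09 and 0.04, SE 0.09). Against ESC_0h it was higher by 0.26 (SE 0.09, adjusted p = 0.0275) at 12 h and 0.41 (SE 0.09, adjusted p = 0.00211) at 24 h with RA. The 12 h call was lost without library 1 or 3 of ESC_0h or library 1 or 3 of RA_12h (adjusted p = 0.0697 to 0.0872). It was also lost with the correction for GC content and length.

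Loss of Cyp26a1, the enzyme that clears RA, was set against wild type cells after 24 h of RA. Only the catalytic de novo writers passed the test, and both were lower in the knockout. Dnmt3a stood at 141, 132 and 138 TPM in Cyp26a1_WT and at 88.8, 94.4 and 85.8 TPM in Cyp26a1_KO. The groups did not overlap, and the knockout mean was 65.6% of the wild type mean (change -0.60, SE 0.06, adjusted p = 0.00281). Dnmt3b stood at 133, 128 and 134 TPM in wild type and 91.3, 108 and 98.5 TPM in knockout, again with no overlap (change -0.41, SE 0.07, adjusted p = 0.0191). The Dnmt3b call was lost without any one wild type library (adjusted p = 0.0749 to 0.0955). Of 12848 genes tested 9.99% were called (3.34% higher, 6.65% lower), beside 2 of the 9 here. That share went to between 2.44% and 2.67% without a wild type library, and to 24.6% without library 3 of the knockout.

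**Figure D5:**
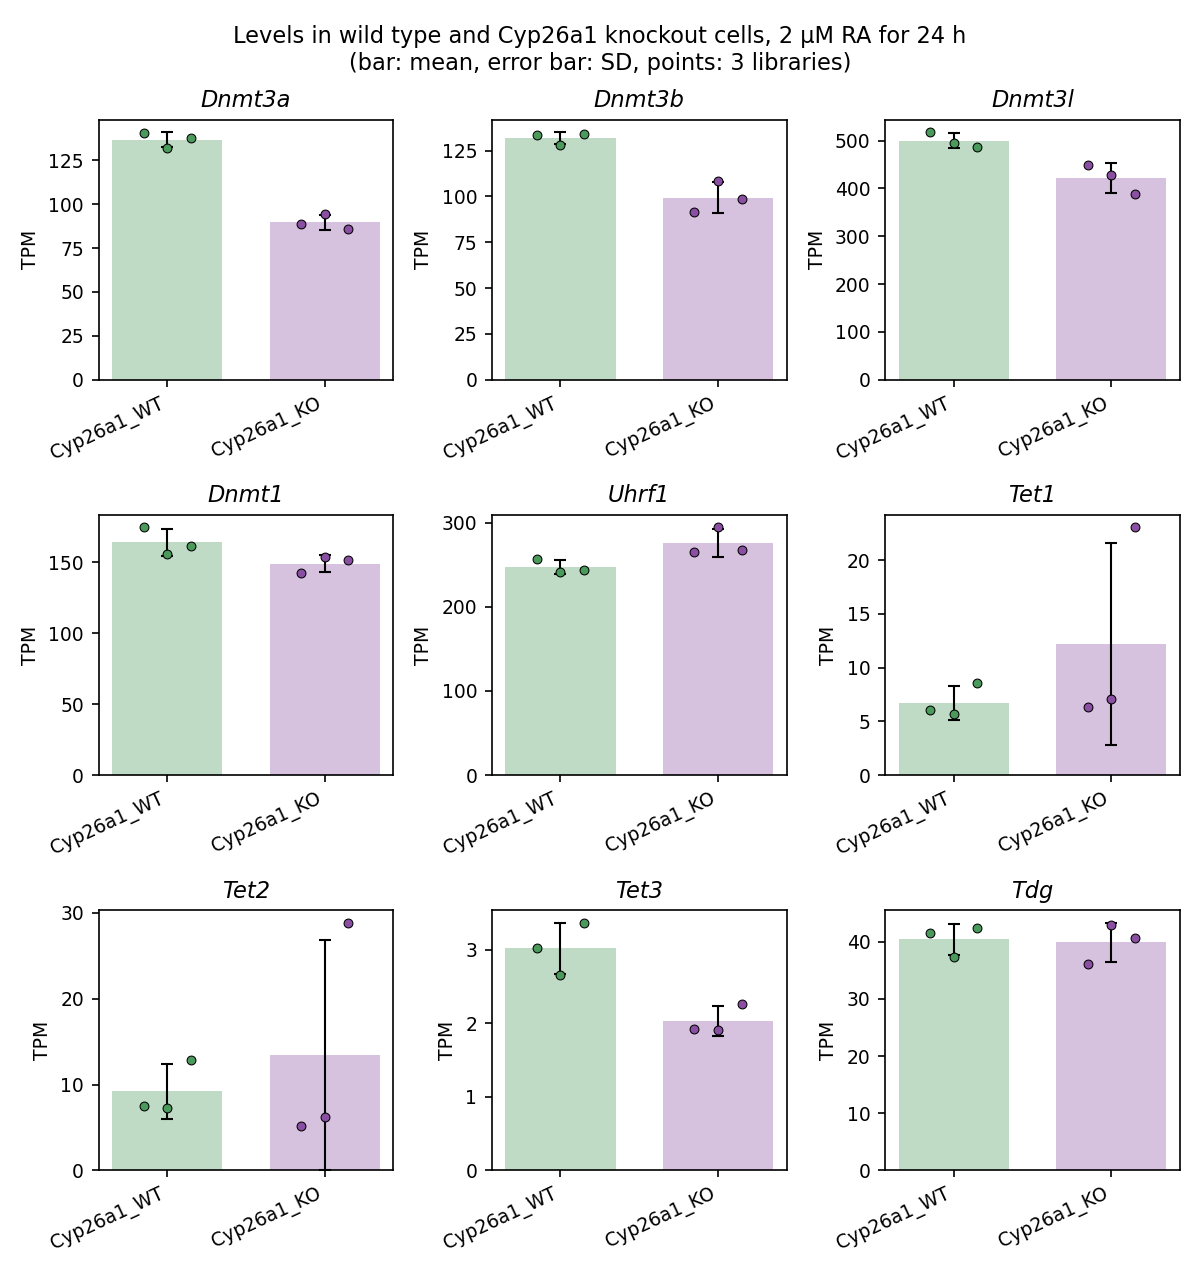
TPM of the 9 genes (vertical axes, linear from 0) in wild type and Cyp26a1 knockout cells after 24 h of RA, with bars for the mean of 3 libraries, error bars for the SD and a point per library; error bars that would reach below 0 stop at the axis. The Dnmt3a libraries of the knockout lay between 85.8 and 94.4 TPM, all below those of the wild type (132 to 141 TPM).

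Dnmt3l stood at 518, 494 and 487 TPM in wild type and 450, 429 and 388 TPM in knockout (change -0.25, SE 0.06, adjusted p = 0.0632). With the replicate number as a block it was called lower (adjusted p = 0.0422), as it was without library 3 of the knockout (-0.19, adjusted p = 0.0202). Tet3 stood at 3.03, 2.66 and 3.36 TPM in wild type and 1.92, 1.91 and 2.27 TPM in knockout, with no overlap (change -0.41, SE 0.12, adjusted p = 0.0897), and passed without library 3 of the knockout (adjusted p = 0.0489). Dnmt1 (change -0.14, SE 0.06), Uhrf1 (change 0.15, SE 0.06) and Tdg (change -0.02, SE 0.09) did not pass either. Tet1 stood at 6.02, 5.67 and 8.54 TPM in wild type and 6.38, 7.12 and 23.1 TPM in knockout, and Tet2 at 7.5, 7.26 and 12.9 and at 5.14, 6.22 and 28.8 TPM. In both genes the high value came from library 3 of the knockout, the one that stands apart. The Dnmt3a to Dnmt3b ratio was 1.04 ± 0.0142 in wild type and 0.905 ± 0.0588 in knockout (mean ± SD, n = 3), with no overlap (two-sided exact permutation test, p = 0.1, the smallest possible). Levels are not compared between the Cyp26a1 set and the time course, whose tables were made apart.

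Markers of primitive endoderm, which RA-treated ESCs can form, moved with the writers in the knockout. All 10 of these markers were lower in Cyp26a1_KO, with a median change of -1.25, among them Dab2, a clathrin adaptor (change -1.99, SE 0.10), Cubn, an endocytic receptor (change -1.68, SE 0.20), Gata4 (change -1.64, SE 0.09) and Pdgfra (change -1.56, SE 0.14). They summed to 592 to 635 TPM in wild type and 310 to 332 TPM in knockout. All 6 ESC markers were higher in the knockout, and Nanog was higher by 1.32 (SE 0.04). Of all genes 3.34% were higher there and 6.65% lower. In the time course 9 of the 10 endoderm markers were higher and 1 lower in RA_24h than in noRA_24h (22.8% and 12.5% of all genes). Gata6 was higher by 4.86 (SE 0.14) and Sox17 by 3.92 (SE 0.26). At 12 h 2 were higher and 2 lower (10.2% and 7.19% of all genes). The 10 markers summed to 427 to 498 TPM in RA_24h and 301 to 312 TPM in noRA_24h. At 12 h the sum was 492 to 496 TPM in RA_12h and higher, 519 to 593 TPM, in noRA_12h. None of the 10 was at 0 in all libraries of a group. Of 5 tested trophoblast markers 3 were higher with RA at 12 h and 4 at 24 h (10.2% and 22.8% of all genes). The 6 markers summed to 89.2 to 116 TPM in RA_24h and 54.5 to 57.4 TPM in noRA_24h, with Elf5 at 0 in ESC_0h. In the knockout 1 of 4 tested was lower, and the 6 summed to 111 to 123 TPM against 142 to 152 TPM in wild type. The part of either list in the differences of the writers was not tested.

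Of 16 partners and regulators of the writers, 8 were higher and 3 lower in noRA_24h than in ESC_0h, where 25.4% of all genes were higher and 26.5% lower (median change 0.37, beside 0.03 over all genes tested). Dnmt3c rose by 2.36 (SE 0.13), Pclaf, a PCNA partner that helps to recruit Dnmt1, by 1.19 (SE 0.17) and Uhrf2, a relative of Uhrf1, by 1.11 (SE 0.12). Prdm14, which represses the de novo writers in naive ESCs, fell by 1.84 (SE 0.10), from 30.5 ± 3.19 to 7.81 ± 0.857 TPM (mean ± SD, n = 3). In RA_24h against noRA_24h 1 was higher and 6 were lower (22.8% and 12.5% of all genes, median -0.39, beside 0.02). Dnmt3c was lower (change -1.63, SE 0.13), as were Nsd1, which sets the histone mark that Dnmt3a reads (change -1.19, SE 0.40), Dppa3, which keeps Uhrf1 off chromatin (change -0.93, SE 0.14), and Pclaf (change -0.68, SE 0.17). Nsd1 stood at 15.3, 43.5 and 13.3 TPM in RA_24h and 46.0 to 52.7 TPM in noRA_24h, so that library 2 of RA_24h lay close to the latter. Prdm14 was lower too, at 4.51 ± 0.278 TPM (change -0.67, SE 0.10). In the knockout 3 of 15 were higher and 1 lower (3.34% and 6.65% of all genes), with Prdm14 (change 1.27, SE 0.17) and Zfp57, which protects imprints from erasure (change 0.65, SE 0.08), the largest.

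Of 11 partners of the erasers 10 were tested. After removal of LIF and 2i for 24 h, 5 were higher and 2 lower (25.4% and 26.5% of all genes). Wt1, which brings Tet2 to its targets, rose by 3.63 (SE 0.16), Gadd45a by 3.33 (SE 0.07) and Gadd45g by 3.21 (SE 0.18), both stress-induced proteins tied to active demethylation, and Sinhcaf, a subunit of the Sin3 complex, by 1.65 (SE 0.20). With RA at 24 h 1 was higher and 5 lower than without (22.8% and 12.5% of all genes, median -0.70, beside 0.02). Gadd45g (change -1.84, SE 0.18), Wt1 (change -1.70, SE 0.16), Hmces, a shield of abasic sites in DNA (change -1.48, SE 0.06), and Sinhcaf (change -1.04, SE 0.20) were the lowest. Sinhcaf stood at 158, 229.8 and 130.3 TPM in RA_24h, highest again in library 2, and at 333 to 374 TPM in noRA_24h. In the knockout 2 were higher and 2 lower (3.34% and 6.65% of all genes), Hmces by 0.69 (SE 0.09) and Gadd45a by 0.56 (SE 0.06) being higher and the isocitrate dehydrogenases Idh1 (change -0.42, SE 0.08) and Idh2 (change -0.39, SE 0.05), which supply the cosubstrate of the Tet enzymes, lower.

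Of the base excision repair genes, which work after Tdg, the nuclease Apex1 (change -0.27, SE 0.07) and the ligase Lig3 (change -0.23, SE 0.08) were lower with RA at 24 h. Of the list of readers of methylated DNA and their relatives, Mbd2 was higher by 0.83 (SE 0.08) and Mbd3 by 0.25 (SE 0.08). These are examples, and counts over both lists are not given here.

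Genes of methyl donor supply moved in both directions. Tdh, the threonine dehydrogenase that feeds the ESC folate cycle, stood at 860 ± 33.5 TPM in ESC_0h, 236 ± 4.06 in noRA_24h and 46.8 ± 6.55 in RA_24h (mean ± SD, n = 3). It fell by 1.86 (SE 0.08) after removal and was lower still with RA (change -2.32, SE 0.08). Of the 14 genes 2 were higher and 5 lower in RA_24h than in noRA_24h (22.8% and 12.5% of all genes, median -0.10, beside 0.02), including Mat2b (change -0.81, SE 0.20), Gldc of the glycine cleavage system (change -0.74, SE 0.08) and Mat2a, which makes the methyl donor (change -0.69, SE 0.15). In the knockout Tdh was higher (change 0.90, SE 0.09) and Gldc lower (change -0.92, SE 0.07), and over the list 1 was higher and 3 lower (3.34% and 6.65% of all genes).

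Germline genes with promoters known to be silenced by methylation were higher in part after removal. Of 15 such genes 5 were higher and 1 lower in noRA_12h than in ESC_0h (22% and 20.4% of all genes), and 9 were higher in noRA_24h, where 25.4% of all genes were higher and the other 6 did not pass (median 1.23, beside 0.03 over all genes). Mael, a piRNA pathway gene, rose by 3.51 (SE 0.09), Slc25a31, a germ cell nucleotide carrier, by 2.56 (SE 0.13), Dazl, an RNA-binding protein, by 1.99 (SE 0.56) and Piwil2, a piRNA-binding protein, by 1.80 (SE 0.07). With RA at 12 h 5 of the 15 were higher than in noRA_12h, where 10.2% of all genes were higher. The other 10 did not pass (median 0.24, beside -0.01 over all genes). In RA_24h against noRA_24h 4 were higher, a share near the 22.8% of all genes, among them Dpep3 (change 0.92, SE 0.18), Tex101 (change 0.87, SE 0.10) and Piwil2 (change 0.78, SE 0.07), and the other 11 did not pass (median 0.26). In the knockout 1 of the 15 passed, Mael, which was lower (change -0.36, SE 0.08).

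The order of group means in the time course put noRA_24h first for Dnmt3a, Dnmt3b and Dnmt3l, ESC_0h first for Dnmt1, Uhrf1 and Tet1, and RA_24h first for Tet2, Tet3 and Tdg. The place of Tet2 rests on library 2 of RA_24h (31.0 TPM), since the other libraries of that group (4.40 and 5.23 TPM) lie below every library of ESC_0h and noRA_24h. For Dnmt3b and Uhrf1 no neighbours in that order overlapped. For Dnmt3a the neighbours RA_24h and RA_12h overlapped, and for Dnmt3l noRA_12h and RA_24h. For Dnmt1 each neighbour overlapped with the next except RA_24h and RA_12h, and for Tet3 each did except noRA_24h and noRA_12h. For Tet1, Tet2 and Tdg every neighbour overlapped with the next. Over the 15 time course libraries, which share the same 5 groups, Pearson r of log2(TPM + 1) was 0.97 between Dnmt3a and Dnmt3l, 0.86 between Dnmt3a and Dnmt3b and 0.87 between Tet1 and Tet2, against -0.73 between Dnmt3a and Uhrf1.

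The genes whose pattern over those 15 libraries was most like each of the 9 were taken from all tested genes but predicted ones. For Dnmt3a these were Slc7a7 (r = 0.992) and Dgkeos (r = 0.992), for Dnmt3b Timp3 (r = 0.983) and Otx2 (r = 0.981), and for Dnmt3l Dusp4 (r = 0.992) and Atp1a4 (r = 0.984). Otx2 is a transcription factor of the formative state, and Dusp4 is a phosphatase induced by ERK signalling. For Dnmt1 these were Xpo6 (r = 0.954) and Notch3 (r = 0.931), and for Uhrf1 Ptk7 (r = 0.989) and Shmt1 (r = 0.983), an enzyme of folate metabolism. For Tet1 they were Xrn2 (r = 0.987) and Cnot1 (r = 0.984), and for Tet2 Rab8b (r = 0.982) and Zdbf2 (r = 0.981). For Tet3 they were Mmp2 (r = 0.914) and Lamb1 (r = 0.906), and for Tdg Nol10 (r = 0.950) and Spata5l1 (r = 0.924). The libraries share their groups and the within-group axis, and these values are descriptions only.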

How the data were processed

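Gene abundance tables of 21 polyadenylated RNA libraries were used. The submitters' processing notes name HISAT2 (an aligner), StringTie (a transcript quantifier) and mm10. Of versions, parameters and strand settings nothing is given in the sources used here. The deposited coverage is read depth per base. The authors scaled FPKM for length and library size. The deposited TPM values have the same sum in each library. The tables give no read counts. Per the labels, sequencing was paired-end on more than 1 kind of instrument, without saying which library ran on which.

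Per set, genes reaching 1 TPM in 3 or more libraries entered the test of log2(TPM + 1) by limma 3.58.1 in R 4.3.3 (eBayes with an intensity trend), adjusted over all genes tested. The 15 libraries of the time course shared a model, and the 6 of the Cyp26a1 set another. The fit was tested on simulated data whose noise was independent between genes and libraries. The real libraries share a within-group axis, so that test cannot show the error rate here. Ratios were compared with exact permutation tests (scipy 1.17.1). The pseudocount of 1 makes changes of low genes, such as Tet3, smaller than their TPM ratios. Depth in aligned gigabases is the mode, over genes of a library, of coverage divided by FPKM. Of genes above 1 FPKM, 9.79% to 10.5% lay at that mode in time course libraries and 55.7% to 56.5% in the Cyp26a1 set. The depth of the time course libraries thus rests on a smaller share of genes. Within groups Pearson r of log2(TPM + 1) was 0.982 to 0.998 (time course) and 0.988 to 0.997 (Cyp26a1 set). Exonic length (all exons of a gene joined), GC content (of its longest transcript) and overlaps came from GENCODE M21. Figures were drawn with matplotlib 3.10.9.

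Replicate numbers were taken to pair samples where all 3 same-numbered pairs deviated together with r above 0.1. That held in the Cyp26a1 set (r = 0.189 to 0.536), as a check of the data, and in no time course comparison. Pairs with unlike numbers also went together there. Library 1 of the knockout and library 2 of the wild type had r = 0.227. Library 2 of the knockout and library 1 of the wild type had r = 0.268. The rule therefore cannot show that the Cyp26a1 replicates were paired.

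The 9 genes, the lists of related genes and the markers were chosen with earlier results of these data known. Named were all 9 genes, up to 4 genes per list with the largest called change, the 2 genes most like each of the 9, and genes that overlap them; some list genes that the rule names are not reported here. Alternatives were FPKM, a smaller pseudocount (0.1), the filter dropped or set to a mean of 5 TPM, quantile normalization, median-of-ratios scaling, no intensity trend, a replicate block, only the groups compared, leaving out each library, a covariate for the within-group axis, and a correction for GC content and length (splines with 4 degrees of freedom). Coverage values, and leaving out both libraries that stand apart, were chosen after seeing the data. Coverage was divided by aligned gigabases and took the same pseudocount, so its changes are not on the scale of the TPM changes.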

Additional observations from a re-analysis of the deposited data

Results flagged for a closer look

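The effect of RA differed between 12 h and 24 h for Dnmt3a and Dnmt3b by a test of the difference itself. For Dnmt3a the change of the effect was -0.81 (SE 0.12, limma adjusted p = 8.45e-04), from 0.09 at 12 h to -0.72 at 24 h. For Dnmt3b it was -0.83 (SE 0.09, adjusted p = 9.03e-05), from -0.62 to -1.45. In both genes the levels with RA at 12 h and 24 h were close (102 and 108 TPM for Dnmt3a, 169 and 154 TPM for Dnmt3b), while the levels without RA went from 96.2 to 178 TPM and from 260 to 421 TPM.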

How the results depend on the processing

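The count of the 9 genes called was 5 in noRA_12h against ESC_0h, 3 in noRA_24h against noRA_12h, 3 in RA_24h against RA_12h, 2 in RA_12h against noRA_12h, 2 for the change of the RA effect and 2 in the knockout. Under median-of-ratios scaling the first was 3, where 40.2% of all genes were called. Without both libraries that stand apart, a setting chosen after seeing the data, the first 5 counts became 8, 6, 5, 3 and 4, while the share of all genes called went to 56.7%, 60.4%, 34.7%, 17.8% and 29.2%. With the axis covariate all the counts became 8, 8, 8, 5, 4 and 6. The share of all genes called went to 62.5%, 63.6%, 57.7%, 40.2%, 21.2% and 28.7% there. This covariate takes up within-group variance by its construction, so standard errors shrink. With the correction for GC content and length noRA_24h against noRA_12h gave 5, RA_12h against noRA_12h 5, the change of the RA effect 4 and the knockout 4. In that order, 40.3%, 26.3%, 11.2% and 14.3% of all genes were called with this correction. Leaving out 1 library at a time gave 1 to 4 called genes in the knockout, where 2.44% to 24.6% of all genes were called. For the 42 called changes, 509 of 526 values under the other settings and 247 of 264 with 1 library left out kept their direction and call; the other 17 of each kept the direction and missed the threshold. Among values not called, that of Tet2 in RA_24h against noRA_24h turned to 0.0345 with the GC and length correction and ranged from -1.18 to 0.11 when 1 library was left out, and that of Tet2 in the knockout ranged from -0.57 to 0.57; the cause was not tested. The share of higher genes among all calls went from 64.7% to 45.8% in RA_24h against noRA_24h, from 58.7% to 44.0% in RA_12h against noRA_12h and from 33.4% to 51.8% in the knockout with the GC and length correction. In the time course the replicate numbers share only a number, and the replicate block gave 7 called genes in place of 8 in RA_24h against ESC_0h and the same count in the other time course comparisons. In the Cyp26a1 set, where they met the pairing rule, the replicate block gave 3 in place of 2 (Dnmt3l added) and changed no other call. The tables give no read counts, so the counting error of low genes such as Tet3 is unknown.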
